A study of Homo sapiens with 6 samples.

Results

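The nuclear-encoded genes of respiratory complex I were followed in 786-O, a human cell line from clear cell renal carcinoma in which the VHL gene is inactivated. They were taken as every gene symbol that starts with NDUF, which gave 48 of the 17114 symbols listed. These are 37 subunits, 8 assembly factors named NDUFAF, the pair NDUFA4 and NDUFA4L2, and the readthrough transcript NDUFC2-KCTD14. RNA was compared between 3 libraries of cells given Vehicle and 3 libraries of cells given XMU_MP_1, a compound that inhibits MST1 and MST2, kinases of the Hippo pathway. The labels call the exposure a transfection and give neither a dose nor a time, and both groups are the same single cell line.

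Complex I oxidises NADH, passes the electrons to ubiquinone and pumps protons across the inner mitochondrial membrane. Its matrix arm holds the N module, which binds NADH, and the Q module, which reduces quinone, while the membrane arm moves the protons. Core subunits carry out the chemistry, accessory subunits surround them, and assembly factors help build the complex without staying in it. The core subunits of the membrane arm come from the mitochondrial genome and were not analysed here.

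Levels are FPKM, fragments per kilobase of transcript, which scale each gene by its length and each library by its own total. Changes are on the scale of log2(FPKM + 1), XMU_MP_1 minus Vehicle, and a gene is said to have risen or fallen where limma's adjusted p was below 0.05 over the 11151 genes that averaged 1 FPKM or more. Nothing in the labels says that the libraries came from separate cultures, so these p-values measure the spread between 3 libraries a group. Of 8 marker genes of blood, endothelial, liver and muscle cells, none passed 0.45 FPKM in any library, while 8 genes typical of renal carcinoma lines ran from 3.67 to 3661.91 FPKM. In these bulk libraries fewer cells with a transcript and less of it per cell cannot be told apart. Vehicle replicate 2 and XMU_MP_1 replicate 3 stood apart from the other libraries of their groups. Over 3950 abundant genes, log2 differences had an SD of 0.0904 between Vehicle replicates 1 and 3 and of 0.0699 between XMU_MP_1 replicates 1 and 2, against 0.142 to 0.154 for the other pairs within a group. Pairs between groups had SDs of 0.367 to 0.441. Counts of genes that rose or fell are therefore also given without these libraries. They are read against the shares of all tested genes. These shares were 32% that rose and 25.9% that fell over the 6 libraries, and 36.0% and 28.4% without these 2. The fit without them keeps 2 libraries a group, picked from these data for lying close together. Its spread is small by that choice and its p-values can be too small, so its calls are a description only.

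All 37 nuclear subunits were expressed, and their means spanned a 22.8-fold range. NDUFS6, NDUFB9 and NDUFB7 had the highest means, at 229, 224 and 205 FPKM. NDUFA9, NDUFV3 and NDUFA5 had the lowest, at 10.1, 10.3 and 16.4 FPKM. The order followed transcript length in part, with a Spearman correlation of -0.50 across the 37 genes between the mean FPKM and the length, a description only, since length enters FPKM. The plot of levels in each library shows that neighbours in this order usually overlapped.

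**Figure D1:**
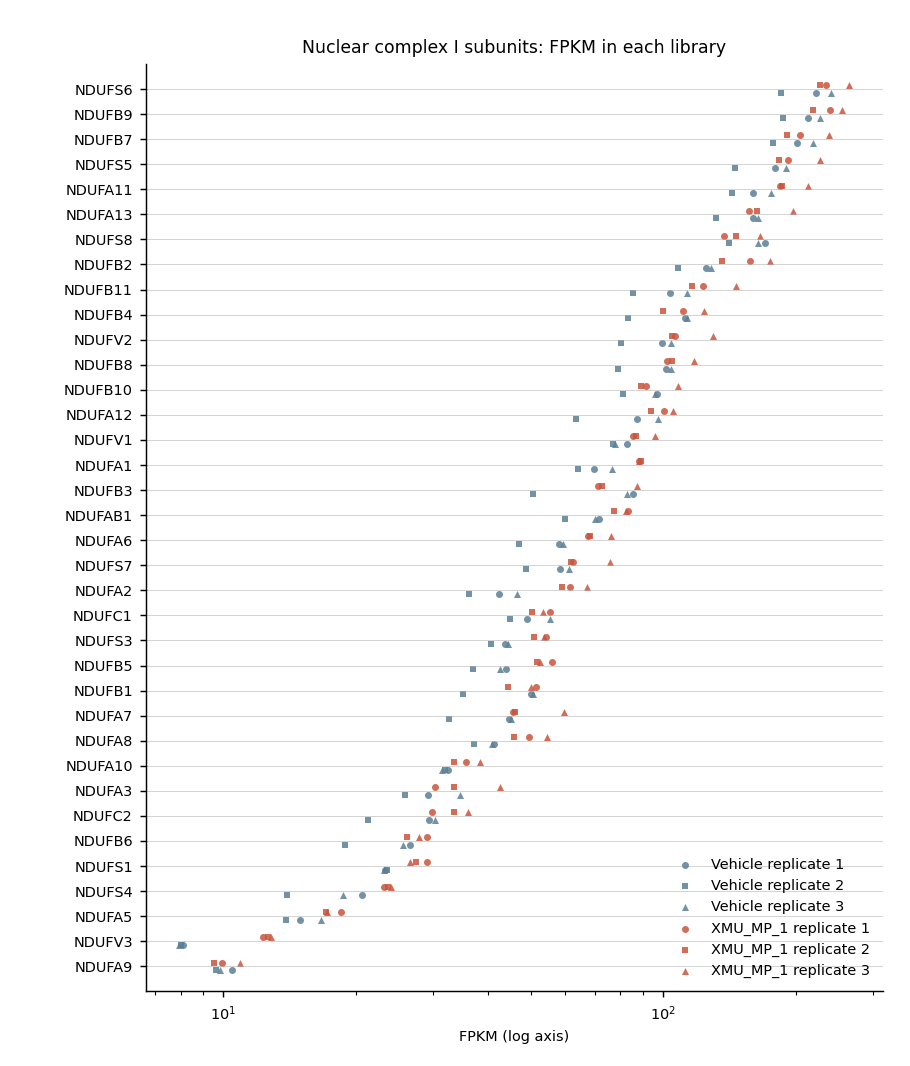
FPKM of nuclear complex I subunits on a log axis, ordered by mean (1 of the 37 is not drawn), with 1 point per library (blue Vehicle, red XMU_MP_1; circles, squares and triangles are replicates 1, 2 and 3). The blue square of Vehicle replicate 2 is the lowest point in 31 rows, and the red triangle of XMU_MP_1 replicate 3 is the highest in 26.

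Many subunits were higher after XMU_MP_1, by modest amounts. Of the 37 subunits, 18 rose, 1 fell and 18 did not pass the test, beside 32% of all tested genes that rose and 25.9% that fell. Their median change was 0.23, against 0.04 for all tested genes. The change was above 0 for 35 of them, of which NDUFA9, NDUFB7 and NDUFB10 were below 0 with libraries rescaled to one total. The 18 that rose did so by 1.12 to 1.57 times in mean FPKM, and 13 of them by at least 1.2 times. Without Vehicle replicate 2 and XMU_MP_1 replicate 3, 14 subunits rose and 4 fell, with a median change of 0.07, and these 14 were all among the 18. The share that rose, 37.8%, was then near the 36.0% of all tested genes, and 10.8% fell, against 28.4% of all tested genes.

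**Figure D2:**
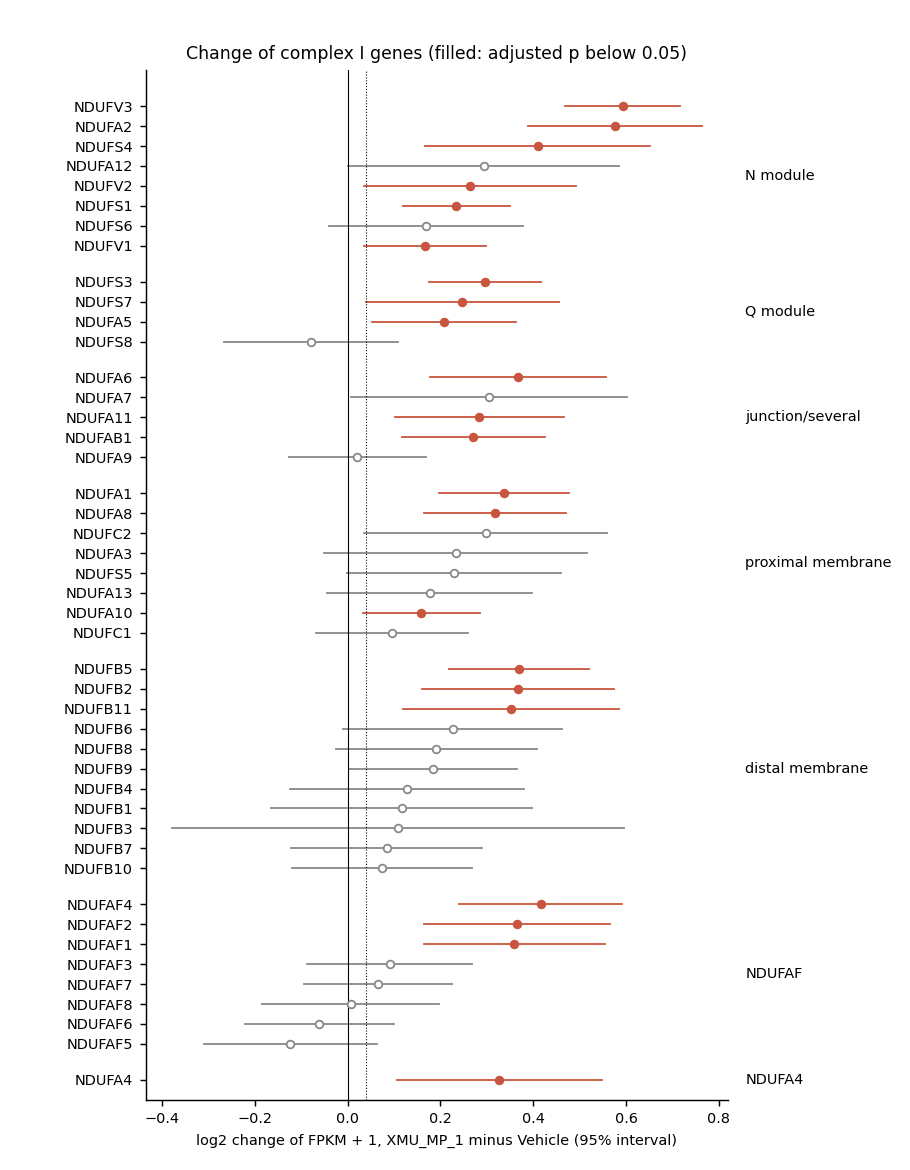
Log2 change of FPKM + 1, XMU_MP_1 minus Vehicle, for complex I genes grouped by module, with 95% intervals from limma (3 libraries a group); the readthrough transcript and 1 core subunit are not drawn. Filled red points were higher at an adjusted p below 0.05, and the dotted line marks the median of all tested genes, 0.04; NDUFV3 and NDUFA2 lie farthest to the right, at 0.59 and 0.58.

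NDUFV3, an accessory subunit at the tip of the N module, had the largest rise. The gene is protein-coding and spans chr21:42879644-42913304 on the plus strand (GENCODE 29, GRCh38). It measured 8.11, 8.0 and 7.94 FPKM in the Vehicle libraries and 12.30, 12.65 and 12.84 FPKM in the XMU_MP_1 libraries. Every treated library lay above every control library, and the spread within each group was small beside the gap. The mean went from 8.02 ± 0.086 to 12.6 ± 0.274 FPKM (SD, n = 3 each), a log2 change of 0.59 with an SE of 0.056 (limma, adjusted p = 7.73e-06). NDUFA2, an N module subunit with a thioredoxin-like fold, came next, from a protein-coding gene at chr5:140638740-140647785 on the minus strand. Its levels were 42.33, 36.28 and 46.49 FPKM with Vehicle and 61.36, 58.83 and 67.07 FPKM with XMU_MP_1. The groups did not overlap, and the log2 change was 0.58 with an SE of 0.084 (limma, adjusted p = 1.83e-04). Both genes passed the test in all 17 alternatives tried, including a test against a minimum change of 1.2-fold, which no other subunit passed. NDUFA2 overlaps exons of IK and TMCO6 on the other strand, and the sources used here do not say whether the authors counted by strand.

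The promoters of these 2 subunits are shown because they rose most. That of NDUFA6 is an example of the several subunit promoters that hold matches to at least 2 of the motifs searched. NDUFA6 is an accessory subunit that carries the acyl carrier protein NDUFAB1. Each window runs from 250 bases before the RefSeq transcription start to 50 bases after it on GRCh38.p14, is read 5′ to 3′ on the strand of the gene, and has motif matches in capitals. The windows are chr21:42893059-42893358 on the plus strand for NDUFV3, chr5:140647581-140647880 on the minus strand for NDUFA2 and chr22:42090723-42091022 on the minus strand for NDUFA6. The NDUFV3 window lies inside the GENCODE span of its gene, downstream of the start given there.
NDUFV3: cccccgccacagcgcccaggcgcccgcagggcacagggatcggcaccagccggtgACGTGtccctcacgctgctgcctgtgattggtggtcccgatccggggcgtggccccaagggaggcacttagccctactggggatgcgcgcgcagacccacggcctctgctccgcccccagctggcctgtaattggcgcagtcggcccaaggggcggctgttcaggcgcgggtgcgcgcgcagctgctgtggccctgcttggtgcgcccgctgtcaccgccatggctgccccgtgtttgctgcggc
NDUFA2: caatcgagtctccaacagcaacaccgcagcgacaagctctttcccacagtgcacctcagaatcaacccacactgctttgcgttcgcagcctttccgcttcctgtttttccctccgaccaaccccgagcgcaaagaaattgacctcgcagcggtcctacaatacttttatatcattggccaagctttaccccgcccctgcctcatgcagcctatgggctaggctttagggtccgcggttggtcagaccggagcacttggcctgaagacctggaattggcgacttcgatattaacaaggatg
NDUFA6: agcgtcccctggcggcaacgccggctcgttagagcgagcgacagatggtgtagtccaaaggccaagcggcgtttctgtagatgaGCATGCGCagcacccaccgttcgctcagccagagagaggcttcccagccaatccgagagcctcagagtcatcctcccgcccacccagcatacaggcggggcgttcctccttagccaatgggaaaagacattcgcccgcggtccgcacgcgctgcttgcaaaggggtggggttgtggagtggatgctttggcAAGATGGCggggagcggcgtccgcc

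In NDUFV3 the capitals are ACGTG, the core of the hypoxia response element, at base 56 of the window. The NDUFA2 window held none of the 4 motifs. In NDUFA6 the first capitals are the NRF1 core GCGCATGC read on the opposite strand, at base 85, and the second are the YY1 core AAGATGGC, at base 276. NRF1, GABPA of the ETS family and YY1 are known regulators of respiratory chain genes. RefSeq promoters were at hand for 32 of the 37 subunits and 9092 of the tested genes, and both strands were searched. The NRF1 core was in 6 subunit promoters, 18.8%, against 6.68% of all tested promoters, and the YY1 core in 7, 21.9%, against 7.0%. The ETS core CCGGAAG was in 5, 15.6%, against 24.2%, and ACGTG in 9, 28.1%, against 33.0%. Subunits that rose numbered 4 of the 6 with the NRF1 core, 3 of the 7 with the YY1 core, 3 of the 5 with the ETS core and 6 of the 9 with ACGTG, beside 48.6% of all 37 subunits and 32% of all tested genes. With so few genes a motif, nothing is read from these counts. A match is a run of letters and not a bound site.

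Of the 7 core subunits, 5 rose over the 6 libraries, against 32% of all tested genes. Without the libraries that stood apart 2 rose and 2 fell, with a median change of 0.06, near the 36.0% and 28.4% of all tested genes. In the N module, NDUFS1, the large subunit with several iron-sulphur clusters, had 23.29, 23.53 and 23.24 FPKM with Vehicle and 29.05, 27.43 and 26.52 FPKM with XMU_MP_1. The groups were apart, and the log2 change was 0.23 with an SE of 0.052 (limma, adjusted p = 2.96e-03). Neither Vehicle replicate 2 nor XMU_MP_1 replicate 3 was its extreme, and without them the change was 0.27, but it did not pass with libraries rescaled to one total, at 0.14. NDUFV1, which binds FMN and NADH, had 82.99, 76.96 and 77.77 FPKM with Vehicle and 85.24, 86.60 and 95.63 FPKM with XMU_MP_1. NDUFV2, its iron-sulphur partner, had 99.43, 80.33 and 104.36 FPKM with Vehicle and 106.50, 105.03 and 129.59 FPKM with XMU_MP_1. For both genes the treated libraries were all higher, by a narrow margin, with log2 changes of 0.17 (SE 0.059) and 0.26 (SE 0.10) and limma adjusted p-values of 0.0324 and 0.0482. Neither passed without the libraries that stood apart, at changes of 0.10 and 0.05.

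In the Q module, NDUFS3, a scaffold of early assembly, had 43.63, 40.57 and 44.52 FPKM with Vehicle and 54.20, 50.83 and 53.53 FPKM with XMU_MP_1. The lowest treated library was above the highest control, and the log2 change was 0.30 with an SE of 0.055 (limma, adjusted p = 8.73e-04). NDUFS3 shares exon sequence with PTPMT1 on the same strand and with CELF1 and KBTBD4 on the other, so its reads may be divided among them. NDUFS7, which carries the iron-sulphur cluster next to the quinone, had 58.17, 48.92 and 60.99 FPKM with Vehicle and 62.42, 61.88 and 75.81 FPKM with XMU_MP_1. Its groups were separated by less than 1 FPKM, and its log2 change of 0.25, with an SE of 0.094 (limma, adjusted p = 0.0427), came to 0.06 without the libraries that stood apart, where it did not pass.

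NDUFS8, an iron-sulphur subunit of the Q module, had 170.34, 141.08 and 164.24 FPKM with Vehicle and 137.73, 146.68 and 165.86 FPKM with XMU_MP_1. Its groups overlapped over nearly their whole range, with a log2 change of -0.08 and an SE of 0.085 by limma (adjusted p = 0.451). Without Vehicle replicate 2 and XMU_MP_1 replicate 3 it was among the 4 that fell, at -0.23.

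Accessory subunits all had changes above 0 over the 6 libraries, from 0.02 to 0.59, except that NDUFA9 turned negative with libraries centred on their median, NDUFA9, NDUFB7 and NDUFB10 with rescaling to one total, and NDUFB1, NDUFB3, NDUFB4, NDUFB7 and NDUFB10 with length and GC trends removed. Of the 30, 13 rose and 17 did not pass the test. Of these 30, 12 rose and 2 fell without the libraries that stood apart, with a median of 0.08. The shares of all tested genes were then 36.0% and 28.4%. No test compared the modules of the complex. With the core subunits counted in, 6 of 8 N module genes rose, 3 of 5 Q module genes, 3 of 5 at the junction of the arms or in several modules, 3 of 8 in the proximal membrane arm and 3 of 11 in the distal membrane arm. Median changes of these modules were 0.28, 0.21, 0.28, 0.23 and 0.18. The share of all tested genes that rose was 32%. Without the libraries that stood apart, 4, 2, 3, 2 and 3 of these genes rose and 0, 2, 0, 0 and 2 fell, with medians of 0.17, 0.06, 0.14, 0.05 and 0.005.

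In the N module, NDUFS4, a subunit of late assembly that is mutated in Leigh syndrome, had 20.68, 13.98 and 18.68 FPKM with Vehicle and 23.23, 23.69 and 24.03 FPKM with XMU_MP_1. The treated libraries lay within 1 FPKM of each other, above the 3 scattered controls, and the log2 change was 0.41 with an SE of 0.11 (limma, adjusted p = 8.40e-03). It was 0.25 without Vehicle replicate 2 and 0.24 with XMU_MP_1 replicate 3 left out as well, and still passed. The zinc-binding NDUFS6 had means of 216 ± 28.3 and 242 ± 19.8 FPKM (SD, n = 3 each) and did not pass, nor did NDUFA12, with 82.5 ± 17.4 and 99.9 ± 5.76 FPKM. In the Q module, NDUFA5 rose from 15.2 ± 1.42 to 17.6 ± 0.734 FPKM. NDUFA5 has 12 annotated pseudogenes, so reads of near-identical copies may enter its value.

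Among genes at the junction of the arms or in several modules, NDUFA6 rose 1.29 times and NDUFAB1, the mitochondrial acyl carrier protein, 1.21 times. NDUFA11 rose 1.22 times, a call lost with libraries centred on their median. NDUFA7 did not pass, with means of 40.7 ± 7.08 and 50.4 ± 7.87 FPKM, although its groups did not overlap. It was the lone subunit of that kind. In all, 19 subunits were separated upward and 1 downward, beside 35% and 28.7% of all tested genes. NDUFA9, the subunit with the lowest level, had a mean of 9.97 ± 0.438 FPKM with Vehicle and 10.1 ± 0.703 FPKM with XMU_MP_1, and the 95% interval of its change ran from -0.13 to 0.17.

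In the proximal membrane arm, NDUFA1, a small single-span subunit, rose from 70.1 ± 6.15 to 88.5 ± 0.312 FPKM and NDUFA8, an intermembrane-space protein, from 39.8 ± 2.29 to 49.97 ± 4.30 FPKM. NDUFA10, which resembles nucleoside kinases, rose 1.12 times, the smallest ratio among the subunits that passed, and it did not pass in 13 of 17 alternatives. The other 5 proximal subunits, NDUFA3, NDUFA13, NDUFC1, NDUFC2 and NDUFS5, did not pass, with mean ratios of 1.07 to 1.23. NDUFC2 came closest, with 29.30, 21.35 and 30.37 FPKM in Vehicle and 29.83, 33.50 and 36.06 FPKM in XMU_MP_1. Its groups overlapped, since Vehicle replicate 3 was above XMU_MP_1 replicate 1, and the adjusted p from limma was 0.0506. The readthrough NDUFC2-KCTD14, which shares exons with it, had 23.72, 22.63 and 25.68 FPKM in Vehicle and 24.35, 20.35 and 19.79 FPKM in XMU_MP_1. Its change of -0.16 (SE 0.079, limma, adjusted p = 0.114) had the opposite sign, and reads of the shared exons may be divided between the pair.

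In the distal membrane arm, 3 of 11 subunits rose. NDUFB5 had 43.95, 36.94 and 42.66 FPKM with Vehicle and 55.92, 51.77 and 52.40 FPKM with XMU_MP_1. Every treated library exceeded the controls, and the log2 change was 0.37 with an SE of 0.068 (limma, adjusted p = 8.90e-04). NDUFB2 had 125.01, 107.94 and 128.75 FPKM with Vehicle and 157.43, 136.05 and 175.02 FPKM with XMU_MP_1. Its treated libraries were again all higher but spread more widely, with a log2 change of 0.37 and an SE of 0.093 (limma, adjusted p = 6.22e-03). NDUFB2 overlaps exons of ADCK2 on the same strand and of BRAF and NDUFB2-AS1 on the other. NDUFB11 rose from 101 ± 14.01 to 129 ± 15.6 FPKM. The other 8, NDUFB1, NDUFB3, NDUFB4, NDUFB6, NDUFB7, NDUFB8, NDUFB9 and NDUFB10, did not pass, with mean ratios from 1.05 to 1.17. In all 11 distal subunits Vehicle replicate 2 was the lowest library. Without the libraries that stood apart, NDUFB3 and NDUFB10 were among those that fell, at -0.23 and -0.10.

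The same 2 libraries moved most subunits together. Vehicle replicate 2 was the lowest library for 31 of the 37 subunits, 83.8%, against 22.5% of all tested genes, and XMU_MP_1 replicate 3 was the highest for 26, 70.3%, against 20.8%. Relative to each gene's mean over the 6 libraries, the median subunit stood at -0.05, -0.30 and 0.01 in Vehicle replicates 1 to 3 and at 0.07, 0.04 and 0.22 in XMU_MP_1 replicates 1 to 3. The median of the 546 tested genes with transcripts under 1000 nucleotides was likewise lowest in Vehicle replicate 2 and highest in XMU_MP_1 replicate 3, at 0.01, -0.22 and 0.03 and then 0.02, -0.00 and 0.17. The median of longer genes stayed between -0.02 and 0.02 in every library. Summed FPKM was 484517, 454889 and 487218 in Vehicle replicates 1 to 3 and 502040, 495351 and 527709 in XMU_MP_1 replicates 1 to 3. Its extremes were the same 2 libraries, and every treated library had a higher sum than every control. Subunit transcripts are short, with a median of 958 nucleotides against 3148 for all tested genes, and 21 of the 37 are among the 546. Those short genes had a median change of 0.14, and 28.4% of them rose and 10.4% fell. When each library's trends with transcript length and GC content were removed before the test, 18 subunits rose and 2 fell, with a median of 0.16. Under that setting 31.7% of all tested genes rose and 32.9% fell, with a median of 0.0006. Whether transcript length accounts for the subunit changes was not tested.

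**Figure D3:**
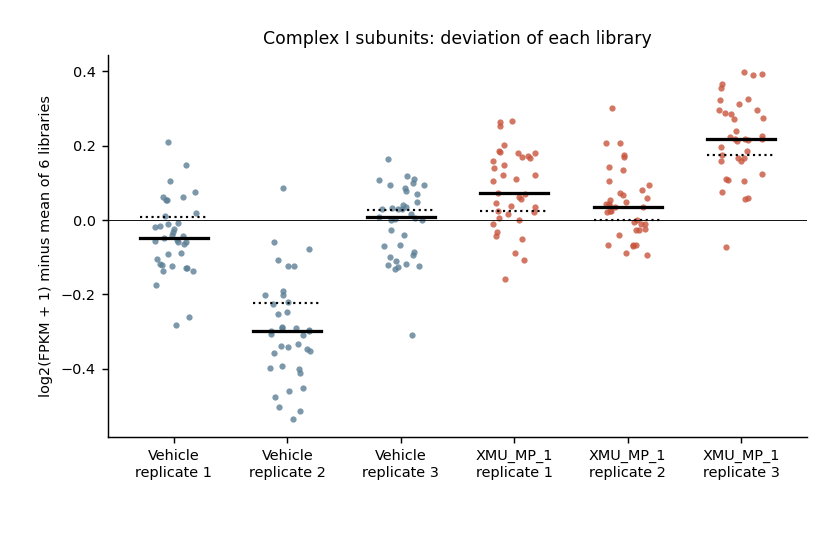
Deviation of log2(FPKM + 1) from the mean of the 6 libraries for each of the 37 subunits (points), by library; the solid bar is the subunit median and the dotted bar the median of the 546 tested genes with transcripts under 1000 nucleotides. Both bars are lowest in Vehicle replicate 2, at -0.30 and -0.22, and highest in XMU_MP_1 replicate 3, at 0.22 and 0.17.

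The calls also differed in how many alternatives they passed. Of the 18 subunits that rose, 10 passed in all 16 alternatives other than the minimum change of 1.2-fold. The 16 include the fit without the libraries that stood apart, whose p-values can be too small. The 10 included NDUFV3, NDUFA2 and NDUFS4 of the N module, and NDUFS3 of the Q module. NDUFA6 and NDUFAB1, at the junction or in several modules, were also among them. The others were NDUFA1 and NDUFA8 of the proximal arm, and NDUFB2 and NDUFB5 of the distal arm. NDUFS3 was the lone core subunit among the 10, and NDUFS1 missed the list through rescaling to one total alone. Among the other 8, NDUFA11 and NDUFS1 passed whichever library was left out. Leaving out 1 library ended the call of NDUFB11 without XMU_MP_1 replicate 3 (0.26), of NDUFA5 without Vehicle replicate 1 or 2 or XMU_MP_1 replicate 1 (0.20, 0.15 and 0.17), and of NDUFA10 without any library but XMU_MP_1 replicate 2 (0.11 to 0.17). It ended that of NDUFS7 without Vehicle replicate 1 or 2 or XMU_MP_1 replicate 3 (0.28, 0.15 and 0.15), of NDUFV1 without Vehicle replicate 2 or 3 or XMU_MP_1 replicate 3 (0.15, 0.15 and 0.12), and of NDUFV2 without Vehicle replicate 2 or XMU_MP_1 replicate 1 or 3 (0.15, 0.31 and 0.17). The values are log2 changes, and all stayed above 0. Of the calls that held with both libraries left out, the change became less by over 1.5 times for NDUFS4 (0.41 to 0.24), NDUFA6 (0.37 to 0.21), NDUFB2 (0.37 to 0.20), NDUFA11 (0.28 to 0.14), NDUFB11 (0.35 to 0.14), NDUFAB1 (0.27 to 0.18) and NDUFA8 (0.32 to 0.21).

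As a share of all FPKM, the 48 genes together held 0.689%, 0.613% and 0.711% in Vehicle and 0.709%, 0.696% and 0.758% in XMU_MP_1. The ranges overlapped, and the means of 0.671% ± 0.0516 and 0.721% ± 0.0329 (SD, n = 3 each) differed by a ratio of 1.07. Metallothionein genes, which took 0.843% to 0.920% of the FPKM in Vehicle and 2.81% to 3.34% in XMU_MP_1, enter that total. With them left out the ratio was 1.10.

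The NDUFAF assembly factors were fewer and mixed. Of the 8, 3 rose, none fell by limma, even at an unadjusted p below 0.05, and 5 did not pass. The share that rose, 37.5%, was near the 32% of all tested genes. Their median change was 0.08, and it was 0.02 without Vehicle replicate 2. Without both libraries that stood apart 3 rose and 2 fell, beside 36.0% and 28.4% of all tested genes, with a median of -0.02. NDUFAF4 had 6.30, 4.92 and 5.54 FPKM with Vehicle and 7.73, 7.78 and 7.76 FPKM with XMU_MP_1. The treated libraries were all higher and nearly identical, and the log2 change was 0.42 with an SE of 0.079 (limma, adjusted p = 1.10e-03). NDUFAF3, which works with NDUFAF4 on the Q module, had 109.66, 93.07 and 110.75 FPKM with Vehicle and 105.51, 105.80 and 122.46 FPKM with XMU_MP_1. Its groups overlapped and it did not pass (change 0.09, SE 0.080, limma, adjusted p = 0.356).

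NDUFAF1, a member of the complex that assembles part of the membrane arm, had 7.38, 5.51 and 6.46 FPKM with Vehicle and 8.62, 8.21 and 8.70 FPKM with XMU_MP_1. The groups were apart, with a log2 change of 0.36 and an SE of 0.088 (limma, adjusted p = 5.04e-03). NDUFAF2, a paralog of NDUFA12 that acts late in assembly, had 17.76, 16.21 and 21.67 FPKM with Vehicle and 24.02, 22.74 and 25.35 FPKM with XMU_MP_1. It too was higher in every treated library, with a log2 change of 0.37 and an SE of 0.091 (limma, adjusted p = 5.54e-03). Without the libraries that stood apart, the changes of NDUFAF1, NDUFAF2 and NDUFAF4 were 0.25, 0.24 and 0.34. All passed there, but the p-values of that fit can be too small.

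The remaining 4 did not pass, and all overlapped between the groups. NDUFAF5, which hydroxylates NDUFS7, had 7.57, 6.02 and 7.47 FPKM with Vehicle and 6.52, 6.44 and 6.05 FPKM with XMU_MP_1 (change -0.12, SE 0.084). NDUFAF8, which stabilises NDUFAF5, had 70.92, 57.95 and 69.65 FPKM with Vehicle and 62.23, 63.33 and 73.65 FPKM with XMU_MP_1 (change 0.01, SE 0.086). Both had their lowest Vehicle value in replicate 2. Without that library and XMU_MP_1 replicate 3, the changes of NDUFAF5 and NDUFAF8 were -0.19 and -0.16 (limma, adjusted p = 0.0164 and 3.02e-03). That fit holds 2 libraries a group, picked for lying close together, so these p-values can be too small. NDUFAF6, an early assembly factor, had 14.04, 11.58 and 12.76 FPKM with Vehicle and 12.34, 12.63 and 11.61 FPKM with XMU_MP_1 (change -0.06, SE 0.073). NDUFAF7, a methyltransferase, had 6.70, 6.85 and 7.91 FPKM with Vehicle and 7.35, 7.43 and 7.76 FPKM with XMU_MP_1 (change 0.07, SE 0.072).

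The assembly factors not named NDUF showed a like mixture. Of 12 tested, 3 rose and 1 fell, beside 32% and 25.9% of all tested genes, and 8 did not pass, with a median change of 0.01. Without the libraries that stood apart, 3 rose and 5 fell, 41.7% against 28.4% of all tested genes, and the median was -0.03. TMEM70, which helps assemble ATP synthase and complex I, had 16.89, 17.10 and 19.21 FPKM with Vehicle and 27.94, 26.68 and 26.70 FPKM with XMU_MP_1. That was a clean separation and a log2 change of 0.59, with an SE of 0.060 and an adjusted p of 1.41e-05 from limma. DMAC2, a factor of the distal membrane arm, rose from 36.2 ± 1.67 to 45.1 ± 2.23 FPKM. NUBPL, which delivers iron-sulphur clusters to complex I, fell from 6.65 ± 0.0850 to 5.18 ± 0.107 FPKM.

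NDUFA4 was once counted as a complex I subunit and is now assigned to complex IV. It had 63.22, 47.87 and 62.92 FPKM with Vehicle and 71.96, 67.39 and 78.31 FPKM with XMU_MP_1. The groups did not overlap, and the log2 change was 0.33 with an SE of 0.10 (limma, adjusted p = 0.0162). The call was lost without XMU_MP_1 replicate 3, at a change of 0.27, with libraries centred on their median, with every gene above 0 FPKM tested, and against a minimum change of 1.2-fold. The change was 0.20 without Vehicle replicate 2 and 0.14 without both libraries that stood apart, where it passed. Its paralog NDUFA4L2, known as a hypoxia-induced gene that is high in many clear cell renal tumours, was listed at 0 in 5 of the 6 libraries and at 0.04 FPKM in Vehicle replicate 3. It was the lone NDUF gene below the limit for testing, and no fold is given. None of 8 housekeeping genes was listed at 0 in any library. Their lowest value was 15.59 FPKM, so this does not show whether a weakly expressed gene would be seen. The depth of the libraries is unknown, so the level below which the gene would go unseen cannot be given.

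The other respiratory chain complexes showed changes of a like size. Complex III had 5 of 9 genes higher, complex IV 6 of 10 and complex V, the ATP synthase, 8 of 15, with none lower by limma in any of them, even at an unadjusted p below 0.05, and medians of 0.27, 0.34 and 0.22. These shares of 55.6%, 60.0% and 53.3% stood beside 32% of all tested genes that rose. Complex II had 1 of 4 higher, with a median of 0.12, and also 1 of 4 without the libraries that stood apart, with a median of 0.05. UQCRC2 of complex III rose from 63.4 ± 3.15 to 79.5 ± 2.52 FPKM, COX6C of complex IV from 113 ± 8.04 to 148 ± 8.33 FPKM, and ATP5PD of complex V from 171 ± 17.8 to 222 ± 15.7 FPKM. Vehicle replicate 2 was the lowest library for all 9 genes of complex III, all 10 of complex IV and all 15 of complex V. Without the 2 libraries that stood apart, 3, 6 and 7 genes of these complexes rose and 1, 0 and 1 fell, with medians of 0.08, 0.13 and 0.08, beside 36.0% and 28.4% of all tested genes. In complex II, SDHC rose from 59.5 ± 2.70 to 65.9 ± 2.31 FPKM.

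**Figure D4:**
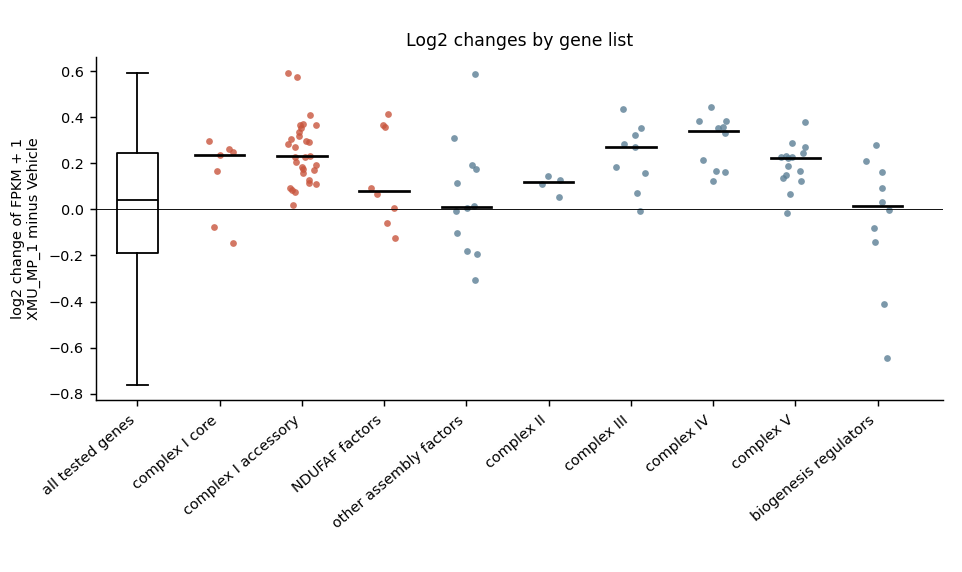
Log2 change of FPKM + 1, XMU_MP_1 minus Vehicle, of each tested gene (points) by gene list, with the list median as a bar; the box at the left shows the median, quartiles and 5th to 95th percentiles of all 11151 tested genes. Core and accessory subunits and complexes III to V have medians of 0.22 to 0.34, and the NDUFAF and other assembly factors 0.08 and 0.01.

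Among electron carriers and genes of ubiquinone synthesis, 6 of 12 rose and 2 fell, beside 32% and 25.9% of all tested genes. Without the libraries that stood apart 7 rose and 3 fell, beside 36.0% and 28.4% of all tested genes. COQ8A, an atypical kinase of ubiquinone synthesis, rose from 2.73 ± 0.0751 to 4.77 ± 0.365 FPKM, whereas its paralog COQ8B fell from 5.43 ± 0.281 to 3.50 ± 0.328 FPKM. COQ6, a hydroxylase of the same pathway, rose 1.29 times. Of 10 tested regulators of mitochondrial biogenesis, 3 rose and 2 fell, near the 32% and 25.9% of all tested genes. When the libraries that stood apart were left out, 4 rose and 2 fell, beside 36.0% and 28.4% of all tested genes. POLRMT, the mitochondrial RNA polymerase, fell from 36.0 ± 1.04 to 22.7 ± 0.936 FPKM, and ESRRA, a nuclear receptor that acts on respiratory genes, from 16.8 ± 0.583 to 12.4 ± 0.856 FPKM. TFAM, which packages mitochondrial DNA, rose from 31.9 ± 1.29 to 39.1 ± 4.74 FPKM. Vehicle replicate 2 was the lowest library for none of these 10 regulators.

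Of 10 hypoxia-linked genes, 5 rose and 1 fell, with a median change of 0.20, beside 32% and 25.9% of all tested genes. Counts of 5 and 2, with a median of 0.09, were found without the libraries that stood apart, beside 36.0% and 28.4% of all tested genes. BNIP3L, a mitophagy receptor, rose from 18.6 ± 0.435 to 26.3 ± 0.640 FPKM and BNIP3, its paralog, from 81.3 ± 4.77 to 101 ± 1.19 FPKM. MXI1, a MYC antagonist, rose from 3.38 ± 0.367 to 4.91 ± 0.337 FPKM. NDUFA4L2 stayed at or near 0 in both groups.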

How the data were processed

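RNA was isolated with Trizol, and libraries followed the BGISEQ-500 procedure, per the labels' protocols. Groups and replicate numbers come from the sample titles. The authors deposited FPKM rounded to 2 decimals, 1 table per library, with 17114 symbols each. Per the submitters' processing notes, GRCh38 was the build. The aligner, quantifier and annotation were not given in the sources used here. Depth is unknown, and no count model was used.

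Genes averaging 1 FPKM or more were tested on log2(FPKM + 1) with limma 3.58.1 (R 4.3.3, statmod 1.5.0), fitting group alone, with robust moderation and a trend of variance on the mean. Two-sided p-values were adjusted by Benjamini-Hochberg over all 11151 tested genes. The code was tested on simulated data. Members and gene lists were chosen with earlier results of these data known, and no list was tested as a set. Values in every library are given for the core subunits, the NDUFAF genes, NDUFA4, NDUFA4L2 and the 6 largest rises and falls past the threshold whose groups did not overlap; 1 core subunit enters the counts and is otherwise not reported here. Up to 3 genes with the smallest adjusted p are named from each other list. NDUFC2, the readthrough and other genes named in the text by their means were chosen after their values were seen. Overlaps, pseudogenes and lengths come from GENCODE 29. Overlapping exons were found for 27 of the 48 genes and named pseudogenes for 19, so these values may include reads of other genes. Promoters come from RefSeq on GRCh38.p14. Alternatives changed the pseudocount, filter, scaling, moderation, threshold, replicate block, length and GC trends, and libraries used.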

Additional observations from a re-analysis of the deposited data

How the results depend on the processing

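Counts of subunits that rose ran from 13 to 22 when 1 library was left out, and those of subunits that fell from 0 to 1. The shares of all tested genes then ran from 27.4% to 32.2% that rose and from 22.8% to 25.6% that fell. The libraries centred on their median gave 11 that rose, and a minimum change of 1.2-fold gave 2 that rose and 0 that fell. Subunits that fell numbered 2 with libraries rescaled to one total, 2 with length and GC trends removed, 0 with the close libraries averaged, and 4 without the libraries that stood apart, a choice made after seeing the data. NDUFAF genes that rose numbered 3 under every alternative but the minimum change, where there were 0. Those that fell numbered 1 with length and GC trends removed, 2 without the libraries that stood apart, and 0 to 1 with 1 library left out. For all tested genes, rescaling gave 2255 that rose, and the minimum change 1077 that rose and 1242 that fell. The minimum change thus called 9.66% of all tested genes higher and 11.1% lower. The median FPKM over the subunits, in place of the summed share of all FPKM, had a ratio of 1.26 between groups. That median fell on NDUFS7 in every Vehicle library and on NDUFA6 in every XMU_MP_1 library, so the ratio is not the change of any gene. The shares of tested genes that rose and fell were 32.0% and 25.9%, against 27.7% and 28.4% when centred, 20.2% and 30.9% when rescaled, and 31.7% and 32.9% with length and GC trends removed. The median change of all tested genes was 0.04, 0.01, -0.05 and 0.00 in that order, and that of the subunits 0.23, 0.20, 0.14 and 0.16.

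Changes of sign, on the log2 scale, touched only genes that had not passed. With length and GC trends removed they were NDUFAF7 at -0.010, NDUFAF8 at -0.089, NDUFB1 at -0.031, NDUFB10 at -0.012, NDUFB3 at -0.034, NDUFB4 at -0.019 and NDUFB7 at -0.0099; of these NDUFAF8 passed the test (limma, adjusted p = 0.0339). Centring gave NDUFA9 at -0.0096 and NDUFAF8 at -0.024. Rescaling gave NDUFA9 at -0.067, NDUFAF3 at -0.0050, NDUFAF7 at -0.020, NDUFAF8 at -0.088, NDUFB10 at -0.021 and NDUFB7 at -0.012. Without the libraries that stood apart they were NDUFA13 at -0.022, NDUFA9 at -0.052, NDUFAF3 at -0.060, NDUFAF8 at -0.16, NDUFB1 at -0.076, NDUFB10 at -0.096, NDUFB3 at -0.23, NDUFB4 at -0.095, NDUFB7 at -0.084 and NDUFS6 at -0.0029. There NDUFAF8, NDUFB10 and NDUFB3 passed, though the p-values of that fit can be too small. With 1 library left out, NDUFA9 ran from -0.028 to 0.060, NDUFAF6 from -0.13 to 0.0032, NDUFAF8 from -0.085 to 0.059, NDUFB1 from -0.053 to 0.20, NDUFB10 from -0.014 to 0.13, NDUFB3 from -0.13 to 0.24, NDUFB4 from -0.017 to 0.20 and NDUFB7 from -0.0043 to 0.16. The cause was not tested.

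The replicate numbers were not taken to pair the libraries. Deviations of same-numbered libraries correlated at -0.20, 0.39 and 0.24, and those of differently numbered libraries at -0.46 to 0.34. These values do not settle whether the numbers pair. With a replicate block, 27 subunits rose, 1 fell, and the NDUFAF counts stayed at 3 and 0. Under that block 35.5% of all tested genes rose and 27.7% fell.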
